A study of Mus musculus with 5 samples.

Results

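The genes described here are 44 markers of cell division, of which 26 act in mitosis and 18 in DNA replication. They were chosen by name: a row of the count files is a member where its gene symbol equals 1 of the 44 symbols, and all 44 were found among the 23183 symbols listed. All 44 were also among the 14305 symbols taken as measured, those averaging 1 CPM or more over the 5 libraries, where CPM are counts scaled to a common library total. The question put to them was how the replication genes and the mitotic genes compare over the groups.

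The data are RNA sequencing of lung homogenates from female wild-type (WT) BALB/c mice, an inbred laboratory strain, with 5 groups and 1 library in each. Listed by treatment, the groups are PM10/OVA/Dex, PM10/OVA/CPX, PM10/OVA, PM10 and Control. PM10 is inhalable airborne particulate matter, given through the nose in 4 doses over 2 weeks to every group except Control. Ovalbumin (OVA), a protein allergen, was injected into the abdomen and later given through the nose in the groups named for it. CPX is the label's short name for a chitinase-1 inhibitor, injected into the abdomen in 6 doses over 3 weeks, and dexamethasone (Dex) is a synthetic glucocorticoid injected in 3 doses in the last week. Mice were killed 2 days after the last challenge, and the labels give the treatment of Control as none. The sources used here do not give ages, amounts per dose, or whether a library is 1 mouse or a pool.

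A dividing cell first licenses its replication origins by loading the MCM helicase, then copies its DNA in S phase with the sliding clamp PCNA and a fresh supply of nucleotides, and later builds a spindle and divides in mitosis. Replication genes are known to be switched on before S phase by E2F transcription factors, and mitotic genes later, through the MuvB complex with B-MYB and FOXM1 at promoter elements called CHR. In healthy adult lung few cells divide, and in injured or inflamed lung dividing cells are known to include macrophages, lymphocytes, endothelial cells and alveolar type 2 cells. A homogenate mixes all of these, so more dividing cells of a type and more RNA per dividing cell cannot be told apart, nor can fewer cells and less RNA per cell.

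Library totals were 11993222 counts in PM10/OVA/Dex, 12612578 in PM10/OVA/CPX, 16036136 in PM10/OVA, 12038105 in PM10 and 16929068 in Control, so that 1 count was worth 0.0577 to 0.0841 CPM. With 1 library per group there is no replicate and no test: a fold below is a ratio of 2 libraries, and the 95% interval beside it is exact and covers counting error only. A gene is called higher or lower when its ratio on the log2(CPM + 1) scale reaches 1 (2-fold), a scale that understates differences of low genes. Markers of the labelled tissue were present: 8 alveolar type 2 cell genes summed to 20640 to 25056 CPM in the 5 libraries, and none of the alveolar, airway, endothelial or fibroblast markers was at 0. The libraries also differed in tissue that is not lung. The summed level of 8 heart muscle genes was 593 CPM in PM10/OVA/Dex, 224 in PM10/OVA/CPX, 256 in PM10/OVA, 613 in PM10 and 2918 in Control, and fat and cartilage genes were likewise highest in Control, so the libraries, Control most of all, hold lung pieces of different content.

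Promoters of 4 members are shown so that the elements named above can be seen in place, and since they were chosen for holding a match they do not show how the classes differ. They are the 250 bases before the RefSeq start (GRCm38.p6) of the mitotic members and of the replication members with the highest mean CPM among those that hold a CHR or an E2F match. The regions are chr7:135716380-135716629 (minus strand) for Mki67, chr11:99024190-99024439 (minus strand) for Top2a, chr7:102441445-102441694 (plus strand) for Rrm1 and chr5:138171884-138172133 (minus strand) for Mcm7, before the more upstream of its starts. Sequences run 5′ to 3′ toward the gene. Capitals mark matches on either strand to the CHR (TTTGAA or TTCGAA, the second of which reads the same on both strands), to the E2F element (TTCCCGC or TTGGCGC) and to the CCAAT box.
Mki67: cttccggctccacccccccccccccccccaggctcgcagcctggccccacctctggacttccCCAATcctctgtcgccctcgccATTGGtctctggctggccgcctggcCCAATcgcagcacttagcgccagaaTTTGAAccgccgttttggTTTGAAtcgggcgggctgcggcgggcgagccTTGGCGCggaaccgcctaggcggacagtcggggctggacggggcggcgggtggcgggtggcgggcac
Top2a: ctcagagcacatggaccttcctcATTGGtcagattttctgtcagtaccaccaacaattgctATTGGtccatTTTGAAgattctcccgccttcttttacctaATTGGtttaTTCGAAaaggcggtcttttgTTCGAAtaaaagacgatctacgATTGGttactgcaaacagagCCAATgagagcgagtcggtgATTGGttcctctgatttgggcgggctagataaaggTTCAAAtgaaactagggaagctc
Rrm1: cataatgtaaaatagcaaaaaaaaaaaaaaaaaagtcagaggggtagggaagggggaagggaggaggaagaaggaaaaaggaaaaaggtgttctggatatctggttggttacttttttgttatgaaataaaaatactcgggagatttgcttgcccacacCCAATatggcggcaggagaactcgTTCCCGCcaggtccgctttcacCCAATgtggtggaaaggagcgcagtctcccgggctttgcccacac
Mcm7: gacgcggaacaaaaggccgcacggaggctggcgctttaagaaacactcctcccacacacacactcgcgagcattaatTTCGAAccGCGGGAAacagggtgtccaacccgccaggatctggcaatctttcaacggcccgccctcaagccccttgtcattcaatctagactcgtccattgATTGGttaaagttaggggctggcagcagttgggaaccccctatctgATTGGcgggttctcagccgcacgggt

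In these windows Mki67 and Top2a carry CHR matches close to CCAAT boxes, Mki67 also carries an E2F match, Rrm1 carries an E2F match between a pair of CCAAT boxes, and Mcm7 carries a CHR match beside an E2F match. RefSeq promoters were found for 37 members, 21 mitotic and 16 replication. A gene with several starts has several windows, 32851 for 27025 symbols, and was counted once where any of them held a match. A CHR match was held by 10 of the 21 mitotic genes (47.62%) and 2 of the 16 replication genes (12.5%), beside 19.55% of the 27025 symbols. E2F matches were held by 4 mitotic (19.05%) and 6 replication genes (37.5%), beside 6.45% of all symbols. A CCAAT box was held by 19 mitotic (90.48%) and 9 replication genes (56.25%), beside 37.49% of all symbols. Both a CHR match and a CCAAT box were held by 10 and 2, beside 7.926% of all. A match describes letters in a window and is not a measured binding site.

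Over the 5 libraries the 2 classes had different profiles. Every one of the 26 mitotic genes was highest in PM10, and 20 of them were lowest in Control. Of the 18 replication genes 14 were highest in PM10 and 4 in PM10/OVA, and 10 were lowest in PM10/OVA/Dex. The mitotic genes together summed to 161 CPM in PM10/OVA/Dex, 237 in PM10/OVA/CPX, 209.7 in PM10/OVA, 481 in PM10 and 133 in Control, a single peak in PM10. The replication genes together summed to 293 CPM in PM10/OVA/Dex, 359 in PM10/OVA/CPX, 484 in PM10/OVA, 515 in PM10 and 307 in Control, a plateau over PM10 and PM10/OVA. These sums are not per length and weigh abundant genes most, so the single genes follow.

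**Figure D1:**
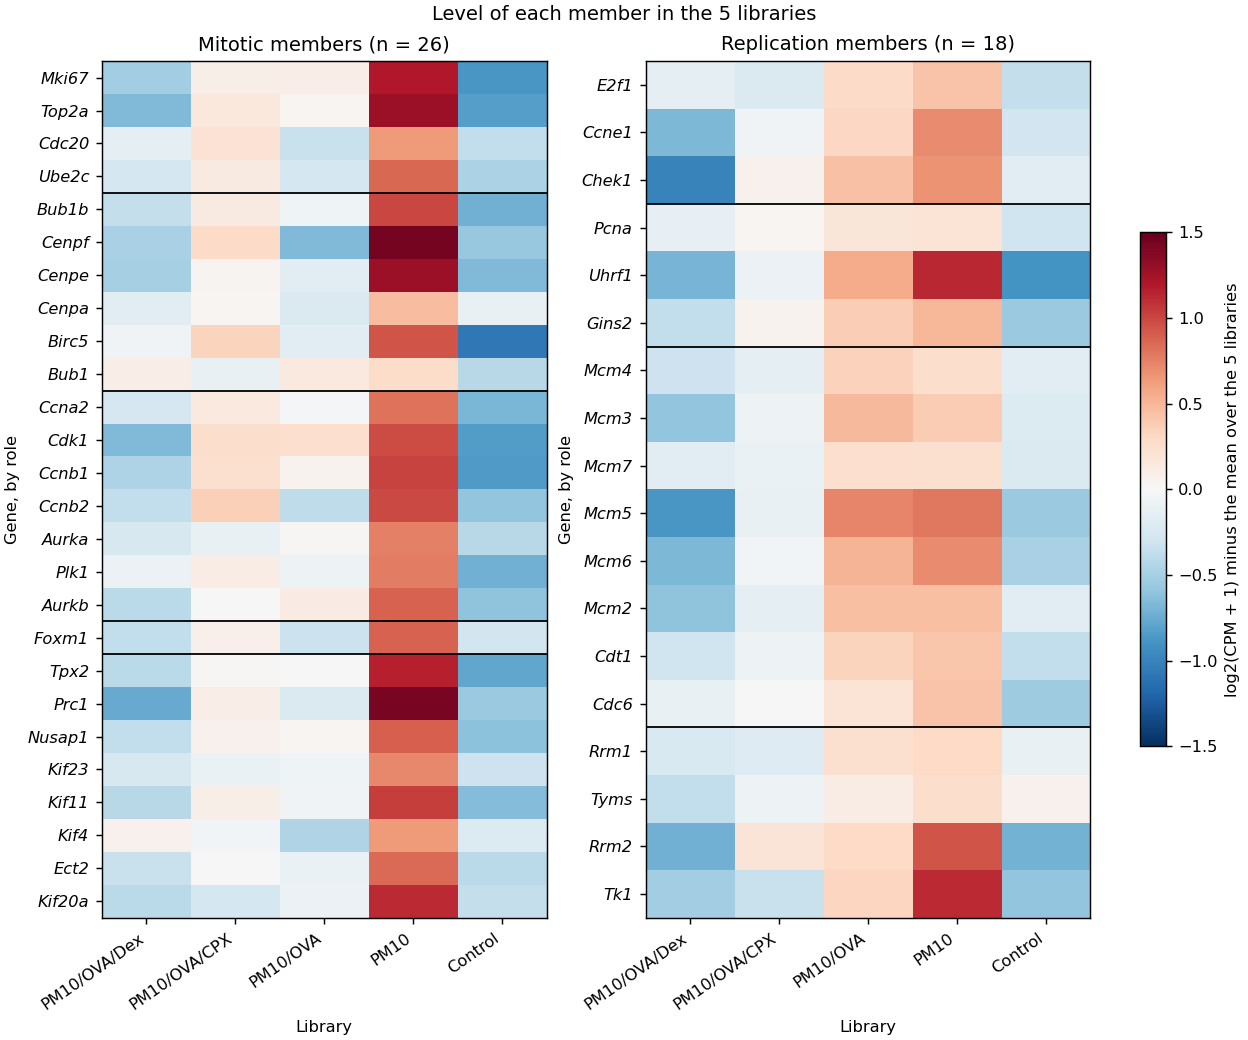
Level of each of the 44 genes in each of the 5 libraries, as log2(CPM + 1) relative to the gene's mean over the libraries, with mitotic genes and replication genes in separate blocks and libraries in the order PM10/OVA/Dex, PM10/OVA/CPX, PM10/OVA, PM10 and Control. All 26 mitotic genes are highest in PM10, whereas the replication genes are high in both PM10 and PM10/OVA.

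Mki67 (ENSMUSG00000031004.8, chr7:135689784-135716361, minus strand; coordinates here and below are GRCm38, from GENCODE M21) encodes the Ki-67 protein that coats mitotic chromosomes and is the standard marker of cycling cells. It had 32.1 CPM in PM10/OVA/Dex, 49.7 in PM10/OVA/CPX, 49.7 in PM10/OVA, 108 in PM10 and 25.0 in Control. Top2a (ENSMUSG00000020914.17, chr11:98992943-99024189, minus strand), the topoisomerase that untangles sister chromosomes, had 17.7 CPM in PM10/OVA/Dex, 32.1 in PM10/OVA/CPX, 29.3 in PM10/OVA, 70.8 in PM10 and 15.7 in Control. Both genes were highest in PM10 and lowest in Control, with PM10/OVA/CPX and PM10/OVA close together between them and PM10/OVA/Dex nearer to Control. Cdc20, which activates the anaphase-promoting complex so that sister chromosomes can part, had 5.63 CPM in PM10/OVA/Dex, 7.51 in PM10/OVA/CPX, 4.79 in PM10/OVA, 10.4 in PM10 and 4.67 in Control. Ube2c, the ubiquitin-conjugating enzyme of the same complex, was highest in PM10 and lowest in Control, at 10.4 and 3.52 CPM. For Cdc20 and Ube2c the libraries other than PM10 lay closer together than for Mki67.

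Of the mitotic kinases and cyclins, Cdk1, the kinase that drives entry into mitosis, had 3.28 CPM in PM10/OVA/Dex, 7.11 in PM10/OVA/CPX, 7.07 in PM10/OVA, 12.3 in PM10 and 2.77 in Control. Ccna2, the cyclin A that pairs with CDK2 in S phase and CDK1 in G2, had 10.2 CPM in PM10/OVA/Dex, 13.8 in PM10/OVA/CPX, 12.05 in PM10/OVA, 22.5 in PM10 and 7.32 in Control. Ccnb1, the main cyclin partner of Cdk1, had 2.86 CPM in PM10/OVA/Dex, 5.27 in PM10/OVA/CPX, 4.54 in PM10/OVA, 9.77 in PM10 and 1.96 in Control. These 3 genes shared 1 order: PM10 highest, PM10/OVA/CPX and PM10/OVA next, then PM10/OVA/Dex, and Control lowest. Ccnb2, the second B-type cyclin, had 2.94 CPM in PM10/OVA/Dex, 5.51 in PM10/OVA/CPX, 2.90 in PM10/OVA, 9.11 in PM10 and 2.36 in Control. Plk1, a kinase of spindle formation and mitotic exit, had 2.86 CPM in PM10/OVA/Dex, 3.43 in PM10/OVA/CPX, 2.90 in PM10/OVA, 5.96 in PM10 and 1.499 in Control. For these the PM10/OVA and PM10/OVA/Dex libraries were level within counting error. Aurka, the spindle-pole kinase, and Aurkb, the kinase of the chromosomal passenger complex, were at 6.21 and 6.13 CPM in PM10, against 2.19 and 1.56 CPM in Control, where both were lowest.

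The kinetochore is the protein plate by which a chromosome holds the spindle, and its genes differed widely between libraries. Cenpf (ENSMUSG00000026605.14, chr1:189640606-189688086, minus strand), a large kinetochore-associated protein made late in the cycle, had 5.05 CPM in PM10/OVA/Dex, 9.34 in PM10/OVA/CPX, 4.35 in PM10/OVA, 21.9 in PM10 and 4.73 in Control. Cenpe, the kinesin motor of the kinetochore, had 4.71 CPM in PM10/OVA/Dex, 7.35 in PM10/OVA/CPX, 6.25 in PM10/OVA, 18.6 in PM10 and 4.09 in Control. Both peaked in PM10, and in PM10/OVA Cenpf was at 0.921-fold (95% interval 0.659 to 1.28) and Cenpe at 1.53-fold (95% interval 1.11 to 2.10) of the Control level. Bub1b, the BubR1 protein of the spindle checkpoint, had 6.64 CPM in PM10/OVA/Dex, 9.82 in PM10/OVA/CPX, 8.39 in PM10/OVA, 18.7 in PM10 and 4.96 in Control. Birc5, the passenger-complex protein survivin, had 3.36 CPM in PM10/OVA/Dex, 4.71 in PM10/OVA/CPX, 3.03 in PM10/OVA, 7.70 in PM10 and 1.15 in Control, and had the highest CPM ratio of the 44 genes in PM10 against Control. Cenpa, the histone variant that marks centromeres, and the checkpoint kinase Bub1 varied least of this role. Cenpa had 6.14 CPM in PM10/OVA/Dex, 7.11 in PM10/OVA/CPX, 5.87 in PM10/OVA, 9.94 in PM10 and 6.34 in Control. Bub1 had 4.04 CPM in PM10/OVA/Dex, 3.35 in PM10/OVA/CPX, 4.23 in PM10/OVA, 4.72 in PM10 and 2.54 in Control, with PM10/OVA separated by counting error neither from PM10 nor from PM10/OVA/Dex.

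Among spindle and cytokinesis genes, Tpx2, which nucleates spindle microtubules, had 5.63 CPM in PM10/OVA/Dex, 7.90 in PM10/OVA/CPX, 7.76 in PM10/OVA, 18.7 in PM10 and 4.09 in Control. Prc1, which bundles the microtubules of the central spindle, had 3.78 CPM in PM10/OVA/Dex, 7.67 in PM10/OVA/CPX, 5.93 in PM10/OVA, 20.7 in PM10 and 4.50 in Control. Nusap1, a spindle-associated protein, had 5.72 CPM in PM10/OVA/Dex, 8.06 in PM10/OVA/CPX, 7.89 in PM10/OVA, 15.2 in PM10 and 4.67 in Control. Each of the 3 was at 15.2 CPM or more in PM10 and at 8.06 CPM or less in every other library. Kif20a, a kinesin of the cleavage furrow, had 3.53 CPM in PM10/OVA/Dex, 3.99 in PM10/OVA/CPX, 4.67 in PM10/OVA, 12.01 in PM10 and 3.69 in Control. Kif4, a kinesin of chromosome arms and the midzone, had 6.31 CPM in PM10/OVA/Dex, 5.83 in PM10/OVA/CPX, 4.10 in PM10/OVA, 9.86 in PM10 and 5.07 in Control, and was 1 of the 3 mitotic genes lowest in PM10/OVA. Both kinesins act in the last stages of division. The pseudogene row Kif4-ps had 0 counts in all 5 libraries, as had Tyms-ps. The spindle motor Kif11, the midzone kinesin Kif23 and the cytokinesis regulator Ect2 were highest in PM10 too, at 15.8, 13.3 and 11.2 CPM, and lowest in Control, at 4.21, 6.00 and 4.09 CPM. Foxm1, the transcription factor of late cell-cycle genes, had 3.62 CPM in PM10/OVA/Dex, 5.27 in PM10/OVA/CPX, 3.78 in PM10/OVA, 10.02 in PM10 and 3.92 in Control, with the 4 libraries other than PM10 between 3.62 and 5.27 CPM.

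The replication genes began with the MCM2-7 helicase, which unwinds DNA at the fork. Mcm4 had 29.7 CPM in PM10/OVA/Dex, 33.4 in PM10/OVA/CPX, 47.1 in PM10/OVA, 44.5 in PM10 and 33.0 in Control. Mcm3 had 19.8 CPM in PM10/OVA/Dex, 28.7 in PM10/OVA/CPX, 42.8 in PM10/OVA, 39.8 in PM10 and 26.1 in Control. Mcm7 (ENSMUSG00000029730.16, chr5:138164583-138172422, minus strand) had 27.0 CPM in PM10/OVA/Dex, 28.3 in PM10/OVA/CPX, 36.4 in PM10/OVA, 36.4 in PM10 and 26.1 in Control. These subunits were level in PM10/OVA and PM10 and lower in the other 3 libraries. Mcm5 (ENSMUSG00000005410.6, chr8:75109569-75128439, plus strand) had 13.2 CPM in PM10/OVA/Dex, 23.1 in PM10/OVA/CPX, 42.1 in PM10/OVA, 43.99 in PM10 and 16.7 in Control, the widest range of the 6 subunits. Mcm2 had 15.5 CPM in PM10/OVA/Dex, 21.8 in PM10/OVA/CPX, 33.3 in PM10/OVA, 33.1 in PM10 and 21.3 in Control. Mcm6 ranged from 14.5 CPM in PM10/OVA/Dex to 39.3 CPM in PM10. The 4 subunits highest in PM10/OVA, not in PM10, were Mcm2, Mcm3, Mcm4 and Mcm7, each within counting error of its PM10 level. Cdc6, which helps to load the helicase, had 2.44 CPM in PM10/OVA/Dex, 2.71 in PM10/OVA/CPX, 3.28 in PM10/OVA, 3.98 in PM10 and 1.56 in Control, and its loading partner Cdt1 was highest in PM10 and lowest in Control, at 11.6 and 6.28 CPM.

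At the fork, Pcna (ENSMUSG00000027342.14, chr2:132249162-132253314, minus strand), the sliding clamp of DNA polymerases, had 88.4 CPM in PM10/OVA/Dex, 98.7 in PM10/OVA/CPX, 110.0 in PM10/OVA, 111 in PM10 and 78.5 in Control. Per kilobase of transcript Pcna was the most abundant member, with a mean level of 64.2 CPM per kilobase over the libraries, against 11.9 for Rrm1, the next, 6.34 for Top2a, the highest mitotic gene, and 0.592 for Chek1, the lowest of the 44. Uhrf1 (ENSMUSG00000001228.14, chr17:56303321-56323486, plus strand), which recruits the maintenance methyltransferase to newly copied DNA, had 5.21 CPM in PM10/OVA/Dex, 8.46 in PM10/OVA/CPX, 13.8 in PM10/OVA, 21.0 in PM10 and 4.38 in Control. Gins2, a subunit of the GINS complex of the fork helicase, had 2.77 CPM in PM10/OVA/Dex, 4.07 in PM10/OVA/CPX, 5.30 in PM10/OVA, 5.88 in PM10 and 2.31 in Control. Uhrf1 had a wider range than Pcna, and in PM10/OVA it stood between PM10 and Control.

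For nucleotide supply, Rrm1 (ENSMUSG00000030978.10, chr7:102441695-102469771, plus strand), the large subunit of ribonucleotide reductase, had 40.03 CPM in PM10/OVA/Dex, 41.0 in PM10/OVA/CPX, 55.7 in PM10/OVA, 58.1 in PM10 and 43.5 in Control. Its small subunit Rrm2, whose protein is known to be present mainly in S phase, had 4.46 CPM in PM10/OVA/Dex, 9.26 in PM10/OVA/CPX, 10.1 in PM10/OVA, 16.2 in PM10 and 4.50 in Control. The small subunit varied more than the large one: it was 3.61-fold (95% interval 2.76 to 4.76) higher in PM10 than in Control, while Rrm1 was 1.33-fold (95% interval 1.20 to 1.48) higher. Tk1, the thymidine kinase of dividing cells, had 3.62 CPM in PM10/OVA/Dex, 4.23 in PM10/OVA/CPX, 7.25 in PM10/OVA, 13.4 in PM10 and 3.40 in Control. Tyms, thymidylate synthase, had 7.40 CPM in PM10/OVA/Dex, 9.26 in PM10/OVA/CPX, 10.7 in PM10/OVA, 12.01 in PM10 and 10.3 in Control, and was the only member whose interval for PM10 against Control held 1. Rrm2 and Tk1 thus had wide ranges over the libraries and Rrm1 and Tyms narrow ones. Of the regulators of S phase, E2f1, an activating E2F factor, had 11.1 CPM in PM10/OVA/Dex, 10.5 in PM10/OVA/CPX, 15.1 in PM10/OVA, 16.8 in PM10 and 9.34 in Control. Ccne1, the cyclin E1 that starts S phase with CDK2, had 1.01 CPM in PM10/OVA/Dex, 2.08 in PM10/OVA/CPX, 2.96 in PM10/OVA, 4.22 in PM10 and 1.61 in Control. Chek1, the checkpoint kinase of stalled forks, had 0.505 CPM in PM10/OVA/Dex, 2.16 in PM10/OVA/CPX, 3.09 in PM10/OVA, 3.81 in PM10 and 1.67 in Control, and its PM10/OVA/Dex library stood apart from the other 4. Chek1 in that library rests on 6 counts.

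In PM10 against Control, which sets nasal dosing with particles against no treatment, both classes were higher and the mitotic genes more so. None of the 5 groups had nasal dosing without particles, so the particles and the dosing itself cannot be told apart. Called higher were 29 of 44 members and none lower, where 3.7% of all measured genes were higher and 2.04% lower. The 29 were 23 of 26 mitotic and 6 of 18 replication genes, namely Mcm5, Mcm6, Gins2, Uhrf1, Rrm2 and Tk1. The median log2 ratio was 1.51 over the mitotic and 0.82 over the replication genes, a difference of -0.69 (replication minus mitotic), beside -0.0012 over all measured genes. All 44 ratios were above 0, and 43 of the 44 counting intervals lay above 1, beside 24.3% of all measured genes. Mki67 was 4.34-fold (95% interval 3.89 to 4.85), Top2a 4.52-fold (95% interval 3.94 to 5.20), Birc5 6.68-fold (95% interval 4.09 to 11.4) and Ccnb1 4.99-fold (95% interval 3.38 to 7.53) higher in PM10. The mitotic genes below the 2-fold line were Cenpa at 1.57-fold (95% interval 1.20 to 2.05), Bub1 at 1.86-fold (95% interval 1.23 to 2.82) and Kif4 at 1.94-fold (95% interval 1.46 to 2.59). Uhrf1, at 4.78-fold (95% interval 3.69 to 6.27), was the replication gene with the largest ratio, and Tyms, at 1.16-fold (95% interval 0.928 to 1.46), and Rrm1, at 1.33-fold (95% interval 1.20 to 1.48), had the smallest. Summed counts gave 3.63-fold (3.45 to 3.81) for the mitotic and 1.68-fold (1.62 to 1.74) for the replication genes. Ccne1, at 2.62-fold (95% interval 1.62 to 4.31), passed 2-fold by CPM but not on the log2(CPM + 1) scale. The same held for the replication genes Cdc6, at 2.55-fold, and Chek1, with 3.81 against 1.67 CPM. In the same comparison 12 of 12 interferon response genes and 9 of 10 monocyte and interstitial macrophage markers were called higher. Tissue that is not lung was lower in PM10 than in Control. Summed heart muscle markers were at 613 against 2918 CPM, fat markers at 50.9 against 372 and cartilage markers at 6.30 against 77.1. With a pseudocount of 5 in place of 1 CPM, 18 members were called, but the share of all measured genes was counted at 1 CPM only.

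In PM10/OVA against PM10, which asks what allergen added to particles, mitotic genes were lower and replication genes stayed close to their PM10 level. Called lower were 14 of 44 members and none higher, where 1.27% of all measured genes were lower and 0.692% higher. All 14 were mitotic: Cenpf, Prc1, Cenpe, Ccnb2, Top2a, Kif20a, Foxm1, Tpx2, Ube2c, Mki67, Birc5, Kif4, Kif11 and Bub1b. The median log2 ratio was -1.08 over the mitotic and -0.14 over the replication genes, a difference of 0.95, beside 0.0045 over all measured genes. Cenpf was 5.02-fold lower (95% interval 3.84 to 6.65), Prc1 3.49-fold lower (95% interval 2.74 to 4.48), Cenpe 2.98-fold lower (95% interval 2.35 to 3.82) and Ccnb2 3.14-fold lower (95% interval 2.21 to 4.53) in PM10/OVA. Counting intervals lay below 1 for 25 of 26 mitotic genes, all but Bub1, and for 4 of 18 replication genes, which were Mcm6, Uhrf1, Rrm2 and Tk1, beside 20.9% of all measured genes. Tk1, 1.85-fold lower (95% interval 1.45 to 2.37), was the replication gene with the lowest ratio. Mcm3, at 1.08-fold (95% interval 0.956 to 1.21), and Mcm2, at 1.01-fold (95% interval 0.881 to 1.15), did not differ beyond counting error. Summed counts were 2.29-fold lower (2.20 to 2.39) for the mitotic and 1.07-fold lower (1.03 to 1.10) for the replication genes. In the same comparison 11 of 12 interferon response genes and 2 of 10 monocyte and interstitial macrophage markers were called lower, as were 6 of 8 heart muscle markers, and 6 of 7 measured neutrophil markers were called higher. With a pseudocount of 5 CPM, 5 members were called, a setting at which the share of all measured genes was not counted. This comparison and the one before share the PM10 library, so a high value there enters both.

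In PM10/OVA against Control the 2 classes had medians close to each other. Called higher were 4 of 44 members and none lower, where 3.17% of measured genes were higher and 2.73% lower. The 4 were Cdk1 at 2.55-fold (95% interval 1.81 to 3.66), Uhrf1 at 3.15-fold (95% interval 2.42 to 4.15), Mcm5 at 2.53-fold (95% interval 2.20 to 2.91) and Rrm2 at 2.24-fold (95% interval 1.70 to 2.98). The median log2 ratio was 0.54 over the mitotic and 0.67 over the replication genes, a difference of 0.13, beside 0.01 over all measured genes. Summed counts gave 1.58-fold for both, with intervals of 1.5 to 1.67 for the mitotic and 1.52 to 1.63 for the replication genes. Counting intervals lay above 1 for 14 of 26 mitotic and 17 of 18 replication genes, beside 29.6% of all measured genes. The intervals of the mitotic genes were wider, with a median of 0.478 log2 units to either side against 0.303 for the replication genes. A ratio of the same size thus excludes 1 less often in the mitotic class. Cenpf, at 0.921-fold (95% interval 0.659 to 1.28), Kif4, at 0.808-fold (95% interval 0.577 to 1.13), Cenpa, at 0.925-fold (95% interval 0.694 to 1.23), and Foxm1, at 0.965-fold (95% interval 0.671 to 1.39), had ratios below 1, each with an interval that held 1. With a pseudocount of 0.25 CPM, 9 members were called, a setting at which the share of all measured genes was not counted.

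**Figure D2:**
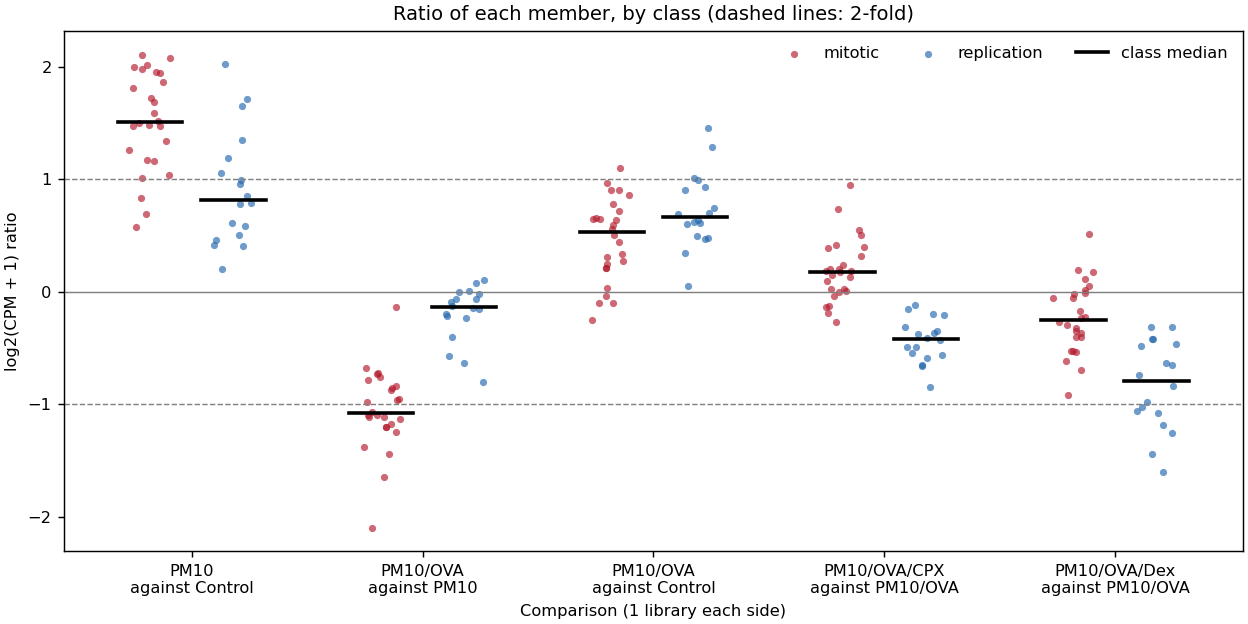
Log2 ratio, on the log2(CPM + 1) scale, of each of the 44 genes in 5 comparisons, 1 point per gene, mitotic and replication genes apart, with class medians as bars and lines at 2-fold higher and lower. The mitotic median is 1.51 in PM10 against Control and -1.08 in PM10/OVA against PM10, while the replication median is 0.82 and -0.14.

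In PM10/OVA/CPX against PM10/OVA, the comparison for the chitinase-1 inhibitor, no member was called higher or lower, where 0.636% of measured genes were higher and 0.762% lower. The class medians lay on opposite sides of 0. The median log2 ratio was 0.18 over the mitotic and -0.42 over the replication genes, a difference of -0.60, beside -0.0043 over all measured genes. All 18 replication ratios were below 0, and 12 of their 18 intervals lay below 1, beside 20.7% of all measured genes. Such intervals exclude 1 at small ratios in abundant genes: 7 of 8 alveolar type 2 and 5 of 6 alveolar type 1 markers also had intervals below 1. Of the mitotic genes 5 had intervals above 1, a share close to the 17.5% of all measured genes, and none below. Mcm5 was 1.83-fold lower (95% interval 1.59 to 2.10), Tk1 1.71-fold lower (95% interval 1.23 to 2.42), Uhrf1 1.63-fold lower (95% interval 1.29 to 2.08) and Mcm2 1.53-fold lower (95% interval 1.32 to 1.77) with the inhibitor. The 5 mitotic genes were Cenpf at 2.15-fold (95% interval 1.58 to 2.93), Ccnb2 at 1.90-fold (95% interval 1.29 to 2.82), Cdc20 at 1.57-fold (95% interval 1.14 to 2.15), Birc5 at 1.56-fold (95% interval 1.04 to 2.33) and Kif4 at 1.42-fold (95% interval 1.004 to 2.02). Mki67, at 0.999-fold (95% interval 0.898 to 1.11), and Cdk1, at 1.01-fold (95% interval 0.753 to 1.34), were level. Summed counts were 1.13-fold higher (1.08 to 1.19) for the mitotic and 1.35-fold lower (1.30 to 1.40) for the replication genes. In the same comparison 2 of 6 measured plasma cell markers were called higher, and of 8 measured alveolar macrophage markers 3 were called higher and 1, Marco, lower. With a pseudocount of 0.25 CPM 1 member, Cenpf, passed the 2-fold line, and the share of all measured genes was not counted there.

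In PM10/OVA/Dex against PM10/OVA, the comparison for the glucocorticoid, replication genes were lower and the mitotic genes differed less. Called lower were 7 of 44 members and none higher, where 1.6% of measured genes were lower and 1.2% higher. All 7 were replication genes: Chek1, 6.13-fold lower (95% interval 2.62 to 17.5), Mcm5, 3.19-fold lower (95% interval 2.68 to 3.82), Uhrf1, 2.65-fold lower (95% interval 1.99 to 3.57), Mcm6, 2.36-fold lower (95% interval 1.98 to 2.81), Rrm2, 2.26-fold lower (95% interval 1.65 to 3.15), Mcm3, 2.16-fold lower (95% interval 1.86 to 2.52), and Mcm2, 2.15-fold lower (95% interval 1.82 to 2.56). The median log2 ratio was -0.25 over the mitotic and -0.79 over the replication genes, a difference of -0.54, beside -0.011 over all measured genes. Intervals lay below 1 for 17 of 18 replication genes, all but Cdc6, and for 7 of 26 mitotic genes, beside 24% of all measured genes. Mitotic intervals were the wider ones, with a median of 0.522 log2 units to either side against 0.349, so these 2 counts are not like for like. Among the mitotic genes Cdk1 had the lowest ratio, 2.15-fold lower (95% interval 1.48 to 3.19), and the abundant Top2a was 1.65-fold lower (95% interval 1.40 to 1.95) and Mki67 1.55-fold lower (95% interval 1.37 to 1.75). Cdk1, like the replication genes Ccne1, 2.94-fold lower (95% interval 1.53 to 6.08), and Tk1, 2.01-fold lower (95% interval 1.40 to 2.92), passed 2-fold by CPM but not on the log2(CPM + 1) scale. Kif4, at 1.54-fold (95% interval 1.09 to 2.18), was the 1 member with an interval above 1, beside 22.1% of all measured genes. The abundant Pcna was 1.24-fold lower (95% interval 1.15 to 1.34) and Mcm7 1.35-fold lower (95% interval 1.17 to 1.55), so the clamp and the helicase subunits differed by unequal amounts. Summed counts were 1.30-fold lower (1.23 to 1.38) for the mitotic and 1.65-fold lower (1.59 to 1.72) for the replication genes. In the same comparison 6 of 8 B cell markers and 6 of 12 interferon response genes were called lower, as were 3 of 7 measured neutrophil markers, and 5 of 8 heart muscle markers, 4 of 7 fat markers and 2 of 6 measured plasma cell markers were called higher. Of the monocyte and interstitial macrophage markers Itgam, Ccr2 and Fcgr1 were called lower, and the list summed to 591 against 747 CPM. Summed cartilage markers were higher, at 7.82 against 0.189 CPM. With a pseudocount of 5 CPM 2 members were called, and the share of all measured genes was not counted there.

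Set directly against each other, PM10/OVA/Dex and PM10/OVA/CPX had similar class medians, -0.42 over the mitotic and -0.36 over the replication genes. Summed counts, which weigh abundant genes most, were 1.47-fold lower (1.39 to 1.56) in PM10/OVA/Dex for the mitotic genes. For the replication genes they were 1.22-fold lower (1.17 to 1.28). Chek1, 4.27-fold lower (95% interval 1.73 to 12.7) in PM10/OVA/Dex, was the 1 member called, where 0.734% of measured genes were lower and 1.06% higher. Cdk1 was 2.17-fold lower (95% interval 1.47 to 3.24), Prc1 2.03-fold lower (95% interval 1.41 to 2.95) and Rrm2 2.08-fold lower (95% interval 1.49 to 2.93), while E2f1, at 1.06-fold (95% interval 0.827 to 1.36), and Mcm7, at 0.952-fold (95% interval 0.816 to 1.11), did not differ beyond counting error. Against Control, PM10/OVA/CPX had 3 members called higher, where 2.73% of measured genes were higher and 2.99% lower. These were Birc5 at 4.09-fold (95% interval 2.42 to 7.16), Ccnb1 at 2.69-fold (95% interval 1.75 to 4.19) and Cdk1 at 2.57-fold (95% interval 1.79 to 3.73), and the medians were 0.69 over the mitotic and 0.24 over the replication genes. Against Control, PM10/OVA/Dex had 1 member called higher, Birc5 at 2.92-fold (95% interval 1.67 to 5.27), where 1.57% were higher and 2.01% lower. Its medians were 0.22 over the mitotic and -0.06 over the replication genes. Summed counts gave 1.21-fold (1.14 to 1.29) for the mitotic and 0.954-fold (0.914 to 0.996) for the replication genes. Of the mitotic ratios 22 of 26 were above 0, with 5 intervals above 1 and 0 below. Of the 18 replication intervals 1 lay above 1 and 5 below, where 23.9% of all measured genes lay above and 21.7% below.

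The balance between the classes within a library needs no scaling between libraries. Replication genes took 64.6% (63.3 to 65.9, exact binomial interval) of all member counts in PM10/OVA/Dex, 60.2% (59.1 to 61.3) in PM10/OVA/CPX, 69.8% (68.9 to 70.6) in PM10/OVA, 51.8% (50.9 to 52.6) in PM10 and 69.9% (68.8 to 70.9) in Control. The share was lowest in PM10, level in PM10/OVA and Control, and between these in both treated libraries, and the intervals of the 2 treated libraries did not overlap each other or those of the rest. A separate list of pathway genes that are not members, 40 of replication and 44 of mitosis, gave shares of 62.1% in PM10/OVA/Dex, 58.7% in PM10/OVA/CPX, 67.0% in PM10/OVA, 55.8% in PM10 and 65.1% in Control, in a narrower range with the lowest again in PM10 and the interval of PM10/OVA (66.2 to 67.8) above that of Control (64.2 to 66.0). Without the members of mixed or regulatory role (Mki67, Top2a, Ccna2, Foxm1, E2f1, Ccne1 and Chek1) the shares were 74.3% in PM10/OVA/Dex, 71.6% in PM10/OVA/CPX, 80.1% in PM10/OVA, 64.6% in PM10 and 78.5% in Control.

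**Figure D3:**
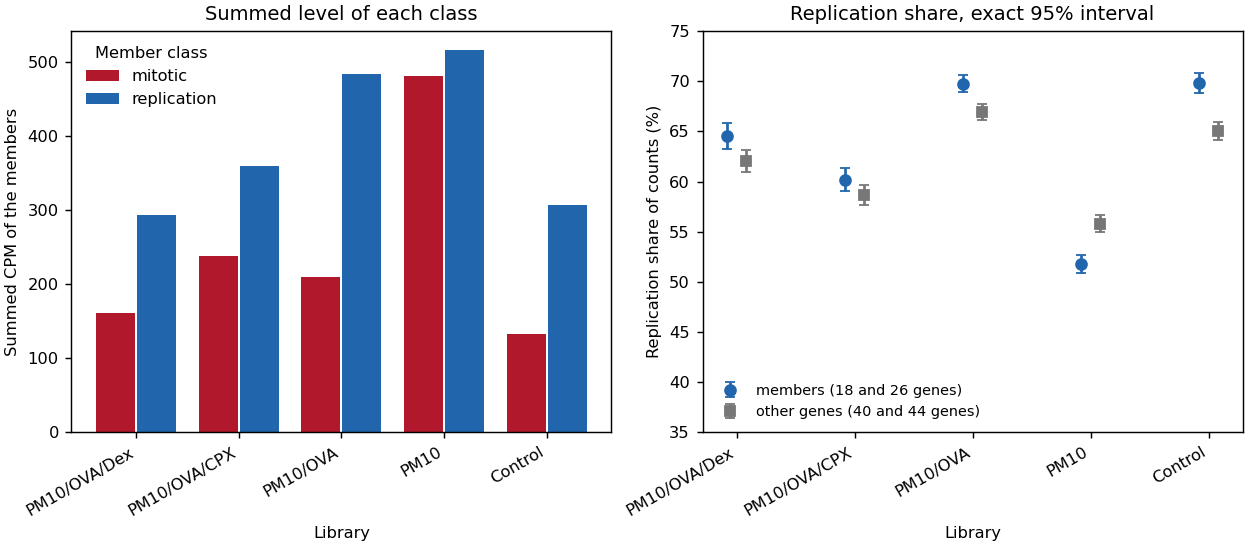
Summed CPM of the mitotic and the replication genes in each library (left) and replication genes as a percentage of all member counts with exact 95% binomial intervals (right, axis not from 0), for the members and for pathway genes that are not members. The share of the members is lowest in PM10, at 51.8%, and is 69.8% in PM10/OVA and 69.9% in Control.

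Other genes of the pathway, from lists drawn up with the members, were counted in the same way. Of 42 measured mitotic genes outside the 44, 31 were higher in PM10 than in Control (median 1.32), 15 were lower in PM10/OVA than in PM10 (median -0.90), 2, Nek2 and Ckap2, were higher with the chitinase-1 inhibitor and none passed with dexamethasone (median -0.26). Of 40 replication genes outside the 44, 11 were higher in PM10 than in Control (median 0.63), 1, E2f8, was lower in PM10/OVA than in PM10 (-0.16), none passed with the inhibitor (-0.24) and 7 were lower with dexamethasone (-0.66). Over all measured genes 3.7% were higher in PM10 than in Control and 1.27% lower in PM10/OVA than in PM10. With the inhibitor 0.636% were higher and 0.762% lower, and with dexamethasone 1.2% were higher and 1.6% lower. Cdca8, a partner of survivin, had 2.02 CPM in PM10/OVA/Dex, 3.67 in PM10/OVA/CPX, 3.41 in PM10/OVA, 7.70 in PM10 and 0.980 in Control. Nuf2, of the outer kinetochore, had 1.43 CPM in PM10/OVA/Dex, 3.11 in PM10/OVA/CPX, 1.77 in PM10/OVA, 7.04 in PM10 and 0.980 in Control. Both had the single peak in PM10. E2f8, a repressing E2F factor, had 1.18 CPM in PM10/OVA/Dex, 2.79 in PM10/OVA/CPX, 2.84 in PM10/OVA, 7.29 in PM10 and 0.980 in Control. Mcm10, which activates the replicative helicase, had 0.925 CPM in PM10/OVA/Dex, 2.32 in PM10/OVA/CPX, 3.85 in PM10/OVA, 5.05 in PM10 and 0.692 in Control, and like Chek1 was lowest among the 4 exposed libraries in PM10/OVA/Dex, 4.16-fold lower (95% interval 2.17 to 8.77) there than in PM10/OVA. At the other end of the lists were Orc6 of the origin recognition complex, 0.807-fold (95% interval 0.632 to 1.03) in PM10 relative to Control, E2f2 at 0.897-fold (95% interval 0.760 to 1.06), the cytokinesis kinase Cit at 0.871-fold (95% interval 0.621 to 1.21) and the condensin subunit Smc4 at 1.35-fold (95% interval 1.25 to 1.46).

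Among genes that act before S phase, none of the 7 G1 cyclins and kinases was called in any of the 8 comparisons. Ccnd1, the cyclin D1 that answers growth signals, had 216 CPM in PM10/OVA/Dex, 240.2 in PM10/OVA/CPX, 291 in PM10/OVA, 231 in PM10 and 251 in Control. Cdk2, the S phase kinase, had 15.7 CPM in PM10/OVA/Dex, 17.5 in PM10/OVA/CPX, 18.7 in PM10/OVA, 22.0 in PM10 and 13.6 in Control, the largest ratio of this list in PM10 against Control, at 1.61-fold (95% interval 1.35 to 1.93), beside Ccnd3, the cyclin D3, at 1.13-fold (95% interval 1.04 to 1.22), and the transcription factor Myc at 0.925-fold (95% interval 0.717 to 1.19). Of 13 measured inhibitors of division none was called in PM10 against Control or in PM10/OVA against PM10. Cdkn1a, the p21 inhibitor of cyclin-dependent kinases, had 119 CPM in PM10/OVA/Dex, 47.7 in PM10/OVA/CPX, 71.7 in PM10/OVA, 61.3 in PM10 and 30.2 in Control. It was highest in PM10/OVA/Dex, 1.66-fold (95% interval 1.54 to 1.80) relative to PM10/OVA and 2.50-fold (95% interval 2.27 to 2.76) relative to PM10/OVA/CPX, of which the second passed the 2-fold line. Relative to Control, Cdkn1a was called higher in PM10/OVA, at 2.37-fold (95% interval 2.14 to 2.64), and in PM10/OVA/Dex, at 3.95-fold (95% interval 3.57 to 4.38). In PM10 it was 2.03-fold (95% interval 1.81 to 2.27) relative to Control, past 2-fold by CPM but not on the log2(CPM + 1) scale. Rbl1, the p107 pocket protein that is itself made in S phase, had 15.3 CPM in PM10/OVA/Dex, 23.1 in PM10/OVA/CPX, 28.8 in PM10/OVA, 34.0 in PM10 and 20.3 in Control, and was high where the replication genes were. Cdkn1c, the p57 inhibitor, had 51.8 CPM in PM10/OVA/Dex, 37.2 in PM10/OVA/CPX, 36.5 in PM10/OVA, 35.7 in PM10 and 49.4 in Control. Ccng1, the cyclin G1 that p53 is known to induce, was at 0.804-fold (95% interval 0.758 to 0.852) in PM10 relative to Control.

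Other measures also differed between libraries, some in an order like that of the members and some not, and their part in the result was not tested. The 12 interferon response genes had summed levels of 205 CPM in PM10/OVA/Dex, 350.4 in PM10/OVA/CPX, 413 in PM10/OVA, 1864 in PM10 and 296 in Control. The 10 monocyte and interstitial macrophage markers had sums of 591 CPM in PM10/OVA/Dex, 739 in PM10/OVA/CPX, 747 in PM10/OVA, 889 in PM10 and 343 in Control. Both lists were highest in PM10, as the mitotic genes were. The fibroblast markers also had their highest sum in PM10, with 2057 CPM in PM10/OVA/Dex, 1915 in PM10/OVA/CPX, 1923 in PM10/OVA, 2589 in PM10 and 2425 in Control. That peak came from Col1a1 and Col1a2, at 495 and 775 CPM in PM10 against 292 and 528 in Control. Of the 8 fibroblast markers 5 had ratios below 0 in PM10 against Control and 3 above, with a median of -0.065. B cell markers, 8 in all, summed to 124 CPM in PM10/OVA/Dex, 204 in PM10/OVA/CPX, 282 in PM10/OVA, 194 in PM10 and 215 in Control. T cell markers, 9 measured, summed to 88.4 CPM in PM10/OVA/Dex, 129.6 in PM10/OVA/CPX, 125 in PM10/OVA, 129.6 in PM10 and 107 in Control. Both lymphocyte lists were lowest in PM10/OVA/Dex. Neutrophil markers, 7 measured, summed to 318 CPM in PM10/OVA/Dex, 569 in PM10/OVA/CPX, 658 in PM10/OVA, 224 in PM10 and 188 in Control. None of the interferon, monocyte, B cell, T cell or neutrophil markers was at 0 in any library. Alveolar macrophage markers, 8 measured, summed to 2204 CPM in PM10/OVA/Dex, 5390.4 in PM10/OVA/CPX, 1235 in PM10/OVA, 993 in PM10 and 588 in Control, an order different from that of either class. Chil3 made up most of that sum in PM10/OVA/Dex and PM10/OVA/CPX, with 1427 CPM in PM10/OVA/Dex, 4455 in PM10/OVA/CPX, 509.6 in PM10/OVA, 309 in PM10 and 108 in Control, whereas Marco had 32.6 CPM in PM10/OVA/Dex, 7.11 in PM10/OVA/CPX, 20.3 in PM10/OVA, 23.8 in PM10 and 2.02 in Control. Plasma cell markers, 6 measured, summed to 874 CPM in PM10/OVA/Dex, 1484 in PM10/OVA/CPX, 649.8 in PM10/OVA, 500.2 in PM10 and 486 in Control, of which Jchain had 377 CPM in PM10/OVA/Dex, 942 in PM10/OVA/CPX, 74.4 in PM10/OVA, 44.5 in PM10 and 49.6 in Control. Sdc1, with 267 CPM in PM10/OVA and 218 in Control, and Xbp1, with 259 and 173, made up most of the sum in both of these libraries. Of markers of blood-cell precursors, which divide in marrow, the myeloid list was low: 1 of 7 was measured, their sum was 1.21 to 8.38 CPM, and Mpo, Elane, Ctsg, Ms4a3 and Fcnb were at 0 in at least 1 library. Erythroid precursor markers, 4 of 8 measured, summed to 267 CPM in PM10/OVA/Dex, 326 in PM10/OVA/CPX, 363 in PM10/OVA, 238 in PM10 and 282 in Control, with Rhd at 0 in at least 1.

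Transcript length also moved with some comparisons. Over 14217 genes with a length, longer genes had lower ratios in PM10/OVA against PM10 (Spearman's rho -0.34) and in PM10/OVA against Control (-0.33), but hardly in PM10 against Control (-0.08). The value was -0.40 in PM10/OVA/CPX against Control, -0.28 in PM10/OVA/Dex against Control, -0.11 in PM10/OVA/CPX against PM10/OVA, 0.12 in PM10/OVA/Dex against PM10/OVA and 0.24 in PM10/OVA/Dex against PM10/OVA/CPX. These describe genes of the same pair of libraries, which are not independent points. Over the 26 mitotic genes rho was 0.45 in PM10 against Control and -0.44 in PM10/OVA against PM10, and over the 18 replication genes it was -0.04 and 0.10. Mitotic transcripts had a median length of 3473.5 bases and replication transcripts of 3267 bases. With the trend on length and base composition removed, 14 members were again called lower in PM10/OVA against PM10, with Cdc20 in the place of Mki67, and the difference between the class medians was 0.87. With only the 11 mitotic and 14 replication genes of 2000 to 4000 bases, a range chosen after seeing the data, it was 0.85. Mki67 has a transcript of 10061 bases, and its log2 ratio in PM10/OVA against PM10 was -1.11, and -0.91 with the trend removed.

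**Figure D4:**
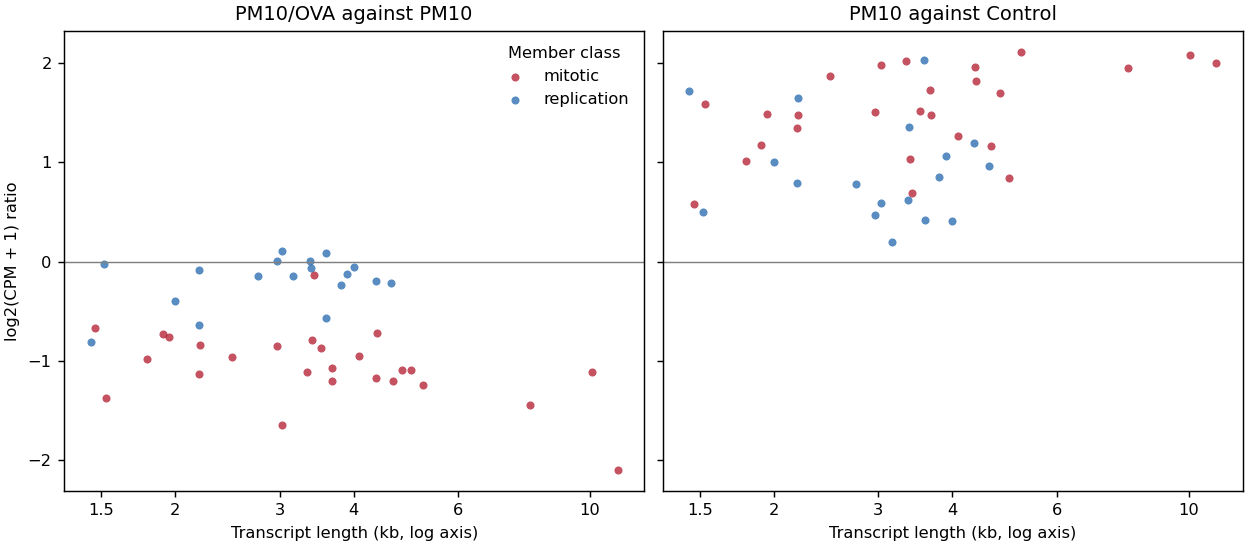
Log2 ratio, on the log2(CPM + 1) scale, of each of the 44 genes by transcript length in kilobases (log axis), in PM10/OVA against PM10 (left) and PM10 against Control (right), with mitotic and replication genes in different colours. In the left panel Cenpf, the longest, is lowest at -2.10, Bub1 is the highest mitotic gene at -0.13, and no replication transcript is longer than 4614 bases.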

How the data were processed

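Lung RNA (Trizol; input 1.3 ug) went into strand-keeping NEBNext Ultra II Directional libraries, per the labels' protocols. Reads were aligned with TopHat to mm10, per the submitters' processing notes. The sources used here do not state the aligner's version or the counting tool with its annotation and strand setting, so overlapping and antisense genes are uncertain. The deposited files, 1 for each library, hold the authors' raw read counts by gene symbol, not normalized.

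From these counts CPM were computed with TMM factors over the 5 libraries (edgeR 4.0.16, R 4.3.3; factors 0.989 to 1.02). Log2 ratios used a pseudocount of 1 CPM, and genes averaging 1 CPM or more were taken as measured. Folds are ratios of CPM with exact (Clopper-Pearson conditional) 95% intervals from the counts, and shares have exact binomial intervals; both cover counting error only, since reads without molecular identifiers are not independent molecules. No test was made, because each group has 1 library. Ratios were tested on simulated data. Lengths came from GENCODE M21, matched for 22148 symbols directly and for 648 by a synonym, with 387 unmatched, and promoters from RefSeq GRCm38.p6.

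The members, their 2 classes and the lists were chosen with earlier results of these data known, so no count is independent support. Values in all libraries are given for the 3 members of each role with the highest mean CPM and for the 2 members of each class with the highest and the 2 with the lowest ratio in each of 8 comparisons. Of each further pathway list, the 2 genes with the highest and the 2 with the lowest ratio in PM10 against Control were eligible. Aurka, Aurkb, Cdt1, Ect2, Kif11, Kif23, Mcm6 and Ube2c fell outside this rule and are given to account for every member. Alternatives changed the scaling, pseudocount, filter, length and base composition trend, and members.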

Additional observations from a re-analysis of the deposited data

How the results depend on the processing

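No paired analysis was possible because each group has 1 library, and for the same reason no library could be left out. The 10 settings below include the main one. Removing the filter could not change a member's ratio, since all 44 members passed it. Other scaling factors shift both classes almost equally, so they could hardly change the difference between them. In all 10 settings the replication median stayed below the mitotic median in PM10 against Control (difference -0.86 to -0.48), PM10/OVA/CPX against PM10/OVA (-0.67 to -0.46) and PM10/OVA/Dex against PM10/OVA (-0.64 to -0.32), and above it in PM10/OVA against PM10 (0.60 to 1.02). Against Control the replication median was also below the mitotic median in all 10 settings in PM10/OVA/CPX (-0.55 to -0.30) and in PM10/OVA/Dex (-0.49 to -0.18). The difference ran from -0.04 to 0.18 in PM10/OVA/Dex against PM10/OVA/CPX. In PM10/OVA against Control it ran from -0.01 to 0.33, where the negative value came from the members of 2000 to 4000 bases, an alternative chosen after seeing the data. Both of these differences thus changed sign in 1 setting. No called ratio was reversed, and scaling with median-ratio size factors moved no count by over 1.5 times.

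Counts of called members moved most with the pseudocount, which acts on low genes by construction. The share of all measured genes called was counted in the main setting only, so the counts below have no such share beside them. With 5 CPM the counts were 18 higher in PM10 against Control (mitotic median 1.01), 5 lower in PM10/OVA against PM10, 2 higher in PM10/OVA against Control, 2 lower in PM10/OVA/Dex against PM10/OVA, 0 lower in PM10/OVA/Dex against PM10/OVA/CPX and 0 higher in either treated library against Control. With 0.25 CPM they were 9 higher in PM10/OVA against Control, 1 higher in PM10/OVA/CPX against PM10/OVA, 3 lower in PM10/OVA/Dex against PM10/OVA/CPX, 7 higher in PM10/OVA/CPX against Control and 1 lower in PM10/OVA/Dex against Control. With a mean of at least 5 CPM, which leaves fewer members, PM10/OVA/Dex had 0 lower against PM10/OVA/CPX and 0 higher against Control, and PM10/OVA/CPX 1 higher against Control. PM10/OVA/CPX had 5 higher against Control with the length and base composition trend removed, and PM10/OVA/Dex 0 higher against Control with library totals. The cause was not tested.

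The replication share was, per kilobase, 73.8% in PM10/OVA/Dex, 70.3% in PM10/OVA/CPX, 78.1% in PM10/OVA, 63.2% in PM10 and 77.3% in Control. Without genes of mixed role it was 74.3% in PM10/OVA/Dex, 71.6% in PM10/OVA/CPX, 80.1% in PM10/OVA, 64.6% in PM10 and 78.5% in Control. Without the most abundant member of each class it was 61.4% in PM10/OVA/Dex, 58.1% in PM10/OVA/CPX, 70.0% in PM10/OVA, 52.0% in PM10 and 68.0% in Control, so that PM10/OVA and Control were then not level. Depth limits the low genes: in PM10/OVA/Dex, Chek1 rests on 6 counts.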
